A study of Malus domestica with 34 samples.

Results

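The change in gene expression between the third and the first sampling was measured in roots of apple seedlings (Malus domestica). The libraries were chosen by tissue and sampling: 6 root libraries of the third sampling and 6 of the first, 12 of the 34 libraries of the series. All plants were seedlings from seed of GDDH18, a doubled haploid line of 'Golden Delicious' that carries identical copies of each chromosome. The pollen parent of that seed and the number of plants in a library are unknown here.

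Plants were 12 weeks old when the watering regimes began and were sown in 3 blocks a week apart, the block being the biological replicate. The third-sampling drought roots (3 libraries) came from plants that had gone through 3 droughts of 3 weeks at 45% soil water content, parted by 3 weeks of rewatering. The third-sampling well-watered roots (3 libraries) came from plants kept near 80% throughout. The first-sampling drought roots (3 libraries) came from plants at the end of a single 3-week drought, and the first-sampling well-watered roots (3 libraries) from plants kept near 80% until then. The stated cycle lengths put the samplings 12 weeks apart. Plant age, season, time in the pot and, under drought, the number of droughts all differ between the samplings and cannot be told apart by this contrast. Leaf libraries of the same samplings (12) are set beside the roots. Next-year roots (4) and leaves (6) of both regimes, taken once a winter had passed and with no further drought, define which genes are root-biased or leaf-biased, and the next-year roots also enter 1 alternative fit of all 16 root libraries, from whose calls 3 of the named genes come.

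Roots take up water and mineral nutrients and are the organ in direct contact with drying soil. Those of a young tree keep growing at their tips while older stretches thicken and replace their outer layers, and in a pot they come to fill the soil. A root sample can hold all of these, and in such bulk RNA fewer cells of a type and less RNA per cell cannot be told apart. The deposited identifiers are not paired with gene names, so genes are described by their behaviour and no function or root marker could be read.

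The 12 root libraries held between 29963017 and 60194325 counts, 29963017 to 60194325 at the third sampling and 38730515 to 55124383 at the first, and between 36151 and 37506 genes with a count. CPM are counts scaled to the library's total after TMM scaling, which adjusts that total for differences in composition, while shares of counts are of the unadjusted total. Leaf-biased genes, with at least 4-fold higher CPM in next-year leaves than in next-year roots, took 2.52% to 3.05% of the counts at the third sampling and 2.53% to 3.43% at the first. Root-biased genes, chosen the other way round, took 24.3% to 27.9% at the third sampling and 20.8% to 28.8% at the first. The 100 most abundant genes of each library took 16.7% to 20.4% at the third sampling and 14.2% to 19.4% at the first. All 66 pairs of these libraries differed by more than sampling noise, with a chi-square of at least 26.7 per gene.

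For each root library the most similar other library came from the same sampling, but the widest difference among the libraries crossed sampling, regime and block and moved with the share of counts from leaf-biased genes. Across the 2000 most variable genes, the first principal component of log2 CPM held 44.3% of the variance. Its positive end held third-sampling block 3 of both regimes, together with first-sampling drought blocks 1 and 3 and well-watered block 2. The other 7 libraries lay at its negative end, so that each sampling, regime and block was found on both sides. Leaf-biased genes took 2.69% to 3.43% of the counts in the 5 libraries at the positive end and 2.52% to 2.76% in the other 7. Root-biased genes took 20.8% to 26.2% at the positive end and 25.7% to 28.8% in the other 7. The second component, with 15.0%, placed 5 of the 6 third-sampling libraries between -38.3 and -10.2 and all 6 first-sampling libraries between 5.6 and 31.9. The exception was the third-sampling well-watered library of block 1, at 30.0, inside the first-sampling range. The most highly correlated library came from the same sampling for 12 of the 12 libraries, from the same regime for 2 and from the same block for 4. The correlations themselves differed little, with medians of 0.956 within the third sampling, 0.96 within the first and 0.952 between them. The lowest was 0.908 within the third sampling, 0.933 within the first and 0.921 between them.

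**Figure D1:**
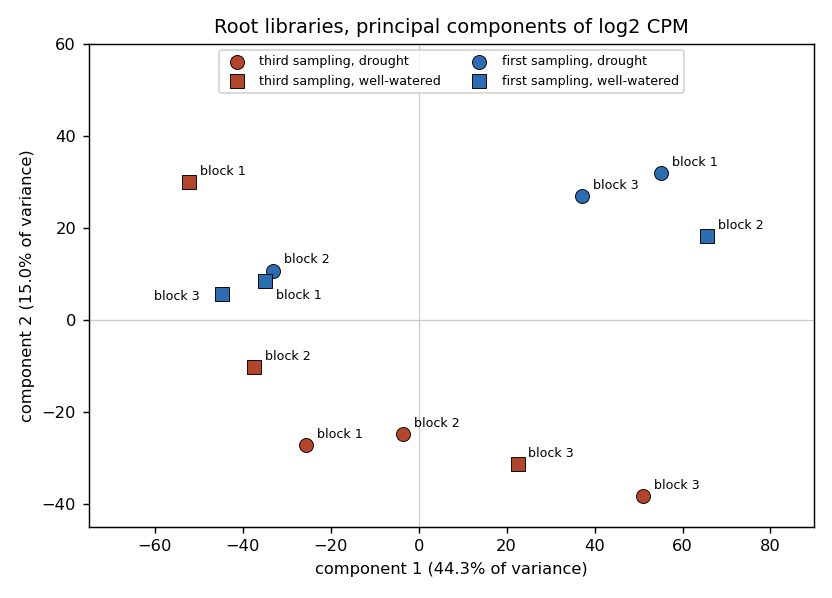
Position of the 12 root libraries on the first (x axis) and second (y axis) principal component of log2 CPM, in arbitrary units, with the share of variance on each axis. Circles are drought roots and squares well-watered roots, red the third and blue the first sampling. The samplings part along the second component, except third-sampling well-watered block 1 at 30.0, while both samplings spread along the first.

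Pairing each third-sampling library with the first-sampling library of the same regime and block gave 6 changes per gene, and these 6 differed widely. Between 11.1% and 19.6% of the 32676 tested genes differed at least 2-fold within a pair. The changes of different pairs correlated across genes between -0.32 and 0.61, with a median of 0.04 over 15 comparisons of pairs. The highest value joined drought block 1 with well-watered block 2, which share neither regime nor block. The genes that lay higher at the third sampling in all 6 pairs numbered 1076 (3.29% of those tested), and 1077 (3.3%) lay lower in all 6. Those at least 2-fold higher in all 6 numbered 9 (0.0275%), and 5 (0.0153%) were at least 2-fold lower.

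With both regimes pooled, no root gene passed the test at the third against the first sampling, although 339 genes (1.04%) separated the samplings without overlap. Of 32676 genes tested with edgeR's quasi-likelihood test, with regime as a term, 0 (0.0%) had a Benjamini-Hochberg adjusted p under 0.05, here termed called. The smallest adjusted p was 0.0904. Before adjustment, 4570 genes (14.0%) had p under 0.05, of which 2300 were higher and 2270 lower. DESeq2, a second count model, called 775 (2.37%), 459 higher and 316 lower. Over all tested genes the median log2 change, the third minus the first sampling, was -0.008.

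The edgeR count depended on which libraries were fitted. It was 3 (0.00894%) with all 16 root libraries in the fit, of which 2 were higher and 1 lower, and 5 without third-sampling well-watered block 1, the library that stood apart on the second component. It was 1 without each of first-sampling drought block 2, well-watered block 1 and well-watered block 2. A term for 1 surrogate variable, an estimate of structure among the libraries that the labels do not give, raised it to 135 (91 higher, 44 lower), of which 104 were among the DESeq2 calls. This alternative was chosen after seeing the data. The DESeq2 count was 2248 without first-sampling well-watered block 1. It was 438, 332 and 494 without first-sampling drought block 1, drought block 3 and well-watered block 2, and 316 without third-sampling drought block 1. With the first-sampling libraries of block 2 both left out, which lie at opposite ends of the first component, edgeR called 0, DESeq2 258, and 2708 genes lay under 0.05 before adjustment.

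The 23 genes that shared the smallest adjusted p included 18 that were higher at the third sampling, with log2 changes of 0.67 to 4.17, and 5 that were lower, with -1.61 to -1.03. All 23 were called by DESeq2, against 2.37% of all tested genes, and had the same sign in both regimes. For 16 of the 18 and 4 of the 5, the groups of 6 libraries did not overlap, against 1.04% of all tested genes. These counts rest on the same contrast that picked the 23 and carry no test. Of the 18 tested in leaf too, 14 of the higher and 4 of the lower genes, 3 were called there, against 8.94% of all genes tested in leaf.

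The intervals of the log2 changes were widest for scarce genes. The median standard error of a log2 change was 0.21, and the 95% interval lay within a 2-fold change in either direction for 23527 genes (72.0%). That share was 42.6% in the lowest of 3 equal classes of abundance, 83.4% in the middle class and 90.0% in the highest.

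The 6 third-sampling values lay above all 6 first-sampling values for 193 genes (0.591% of those tested) and below them for 146 (0.447%). The counts were 390 (1.19%) and 238 (0.728%) without third-sampling well-watered block 1. They were 305 (0.933%) and 228 (0.698%) with the first-sampling libraries of block 2 both left out. In both cases fewer libraries make non-overlap easier. Most of these differences were small. The median log2 change was 0.57 among the 193, with a range of 0.17 to 4.17, and -0.60 among the 146, with a range of -4.07 to -0.19. A 2-fold difference or more was found for 54 of the 193 and 37 of the 146, against 1209 (3.70%) of all tested genes in either direction. DESeq2 called 147 of the 193 (76.2%), which are 32.0% of its 459 higher calls, against 1.4% of all tested genes called higher. It called 95 of the 146 (65.1%), which are 30.1% of its 316 lower calls, against 0.967% of all tested genes called lower. The 2-fold and DESeq2 shares rest on the same libraries that picked the genes and carry no test.

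The mean level of the 193 genes ran from 3.30 to 3.63 log2 CPM over the third-sampling libraries and from 2.54 to 2.81 over those of the first. For the 146 it ran from 2.11 to 2.32 at the third sampling and from 2.86 to 3.04 at the first. These levels follow from how the genes were chosen and carry no test. In the next-year roots, which took no part in the choice, the mean level of each group lay between the samplings. It was at 2.85 to 3.20 log2 CPM for the 193 and 2.35 to 2.76 for the 146. By gene, the next-year mean lay between the means of the samplings for 102 of the 193, above both for 38 and below both for 53. For the 146 these numbers were 95, 21 and 30, and for all 32676 tested genes 7739, 11603 and 13334. Picking genes by the difference between the samplings favours a level between them.

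**Figure D2:**
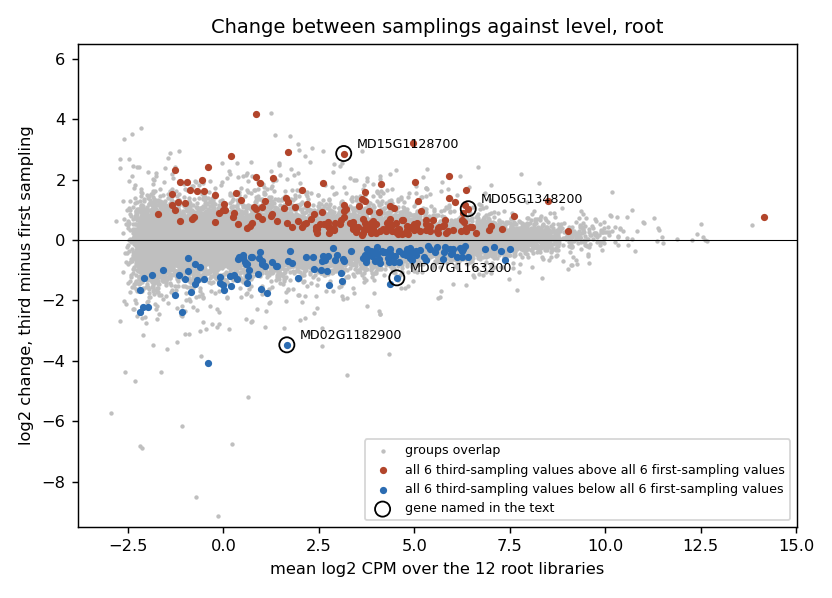
Log2 change, the third minus the first sampling (y axis), against the mean log2 CPM over the 12 root libraries (x axis), 1 point per tested gene. Red points are the 193 genes with all third-sampling values above all first-sampling values, blue points the 146 below them, grey points the rest, and circles the 4 genes named in the text. The non-overlapping genes occur at every level and most lie within a 2-fold change.

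Genes that were higher at the third sampling without overlap were more often root-biased than tested genes at large, and those that were lower more often leaf-biased. A gene was put in a class by its next-year libraries alone, as at least 4-fold higher in one tissue with at least 1 CPM there. Of the 193 higher genes 42 (21.8%) were root-biased and 11 (5.70%) leaf-biased. Of the 146 lower genes 7 (4.79%) were root-biased and 33 (22.6%) leaf-biased. Among all tested genes the shares were 13.7% and 10.7%. The order was the same without third-sampling well-watered block 1, and without the first-sampling libraries of block 2, where 21.3% to 25.4% of the higher genes were root-biased and 18.1% to 21.1% of the lower genes leaf-biased. With 2-fold as the limit the shares were 28.5% and 10.4% among the higher genes, 10.3% and 34.2% among the lower, and 23.2% and 19.3% among all. The share of counts from leaf-biased genes given above overlapped between the samplings, at 2.52% to 3.05% for the third and 2.53% to 3.43% for the first, but its median was 2.65% at the third sampling and 2.96% at the first. The share from root-biased genes overlapped too, with a median of 27.1% at the third sampling and 24.5% at the first. Both medians moved in the direction of these gene groups, and the part of these shares in the differences was not tested.

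The 193 higher genes took 2.83% ± 0.365 of the counts at the third sampling and 1.79% ± 0.295 at the first (SD, n = 6 each), but a single gene made up most of this. That gene is the most abundant in the roots, is root-biased and is not named here. It held 2.22% ± 0.35 of the counts at the third sampling and 1.38% ± 0.287 at the first (SD, n = 6 each). Its level was 17171 to 28453 CPM with a median of 23341 at the third sampling, against 7818 to 16636 CPM with a median of 14458 at the first. Its log2 change was 0.78 (SE 0.23, edgeR adjusted p = 0.215, DESeq2 adjusted p = 0.00607). In the 4 next-year roots it was at 6890 to 9613 CPM, below every third-sampling library. That range also lay below the first-sampling median and overlapped only the low end of the first-sampling range. The other 192 genes together took 0.610% ± 0.0591 at the third sampling and 0.418% ± 0.0128 at the first (SD, n = 6 each). The 146 lower genes took 0.261% ± 0.0217 of the counts at the third sampling and 0.379% ± 0.0361 at the first (SD, n = 6 each).

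No gene switched wholly on or off: 0 genes had counts in all 6 libraries of either sampling and 0 counts in all 6 of the other. In the order of the identifiers, 4 runs of 2 neighbouring tested genes were found among the 193 and none longer, and 0 among the 146. Whether these numbers differ from a random spread of as many genes was not tested. By the first 4 characters of the identifiers, the non-overlapping share lay between 0.558% and 1.61%, against 1.04% of all tested genes. The widest gaps between directions of any prefix were in MD08, with 4 higher and 17 lower of 1576 tested genes (1.33%), and MD12. The latter had 19 higher and 6 lower of 1653 (1.51%). MD14, with the highest share, had 14 higher and 11 lower. These splits were picked after seeing all prefixes and were not tested.

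A rule for naming genes that asked for an edgeR call named none, so 4 identifiers were chosen after their values were seen. They are the 3 genes called with all 16 root libraries in the fit, and the gene with the most negative log2 change among those that did not overlap and had a mean of at least 1 log2 CPM. Their values are in CPM over the 12 root libraries.

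MD15G1128700 had 11.5, 7.51 and 4.76 CPM in drought roots of blocks 1, 2 and 3 and 22.9, 10.8 and 37.7 CPM in well-watered roots at the third sampling. At the first sampling it had 2.50, 1.86 and 1.17 CPM in drought roots and 2.50, 1.04 and 2.16 CPM in well-watered roots. All third-sampling libraries lay above all first-sampling ones, with the 2 highest values in well-watered roots of blocks 3 and 1. Its log2 change was 2.87 (SE 0.43, 95% interval 1.92 to 3.81, edgeR adjusted p = 0.0904, DESeq2 adjusted p = 1.68e-08). With all 16 root libraries the edgeR adjusted p was 0.0496, and over the edgeR alternatives it ran from 0.0323 to 0.284.

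MD05G1348200 had 141, 85.6 and 143 CPM in drought roots and 103, 113 and 102 CPM in well-watered roots at the third sampling. At the first sampling it had 43.4, 53.9 and 53.0 CPM in drought roots and 70.0, 53.1 and 61.1 CPM in well-watered roots. The groups did not overlap, and the closest values were 85.6 CPM at the third and 70.0 CPM at the first sampling. Its log2 change was 1.04 (SE 0.16, 95% interval 0.70 to 1.38, edgeR adjusted p = 0.0904, DESeq2 adjusted p = 2.46e-06). With all 16 root libraries the edgeR adjusted p was 0.0496, and over the edgeR alternatives it ran from 0.0304 to 0.304.

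MD07G1163200 had 12.6, 12.6 and 11.6 CPM in drought roots and 14.3, 12.4 and 18.5 CPM in well-watered roots at the third sampling. At the first sampling it had 36.0, 46.2 and 32.1 CPM in drought roots and 21.9, 27.0 and 32.8 CPM in well-watered roots. Every third-sampling library lay below every first-sampling one, the closest values being 18.5 CPM at the third and 21.9 CPM at the first sampling. Its log2 change was -1.25 (SE 0.18, 95% interval -1.64 to -0.86, edgeR adjusted p = 0.0904, DESeq2 adjusted p = 1.37e-06). With all 16 root libraries the edgeR adjusted p was 0.0462, and over the edgeR alternatives it ran from 0.0304 to 0.26.

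MD02G1182900 had 0.899, 0 and 0.212 CPM in drought roots and 0.312, 0.0526 and 1.79 CPM in well-watered roots at the third sampling. At the first sampling it had 4.32, 7.76 and 6.24 CPM in drought roots and 5.25, 4.71 and 5.65 CPM in well-watered roots. The third-sampling values were near or at 0 except in well-watered block 3, which still lay below every first-sampling value. Its log2 change was -3.47 (SE 0.76, 95% interval -5.12 to -1.82, edgeR adjusted p = 0.131, DESeq2 adjusted p = 0.00731), and over the edgeR alternatives the adjusted p ran from 0.0601 to 0.421. The log2 change itself was -4.40 without third-sampling well-watered block 3.

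The levels of these genes in next-year roots, scaled over all 34 libraries and not over the 12, followed no single course. MD15G1128700, at 2.27 to 14.2 CPM, reached from the range of the first sampling, 1.04 to 2.50 CPM, into that of the third, 4.76 to 37.7 CPM. MD05G1348200, at 74.4 to 92.4 CPM, lay above every first-sampling library and reached into the range of the third sampling, 85.6 to 143 CPM. MD07G1163200, at 11.9 to 18.6 CPM, lay below every first-sampling library and close to the range of the third sampling, 11.6 to 18.5 CPM. MD02G1182900, at 14.5 to 31.3 CPM, lay above every library of both earlier samplings.

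**Figure D3:**
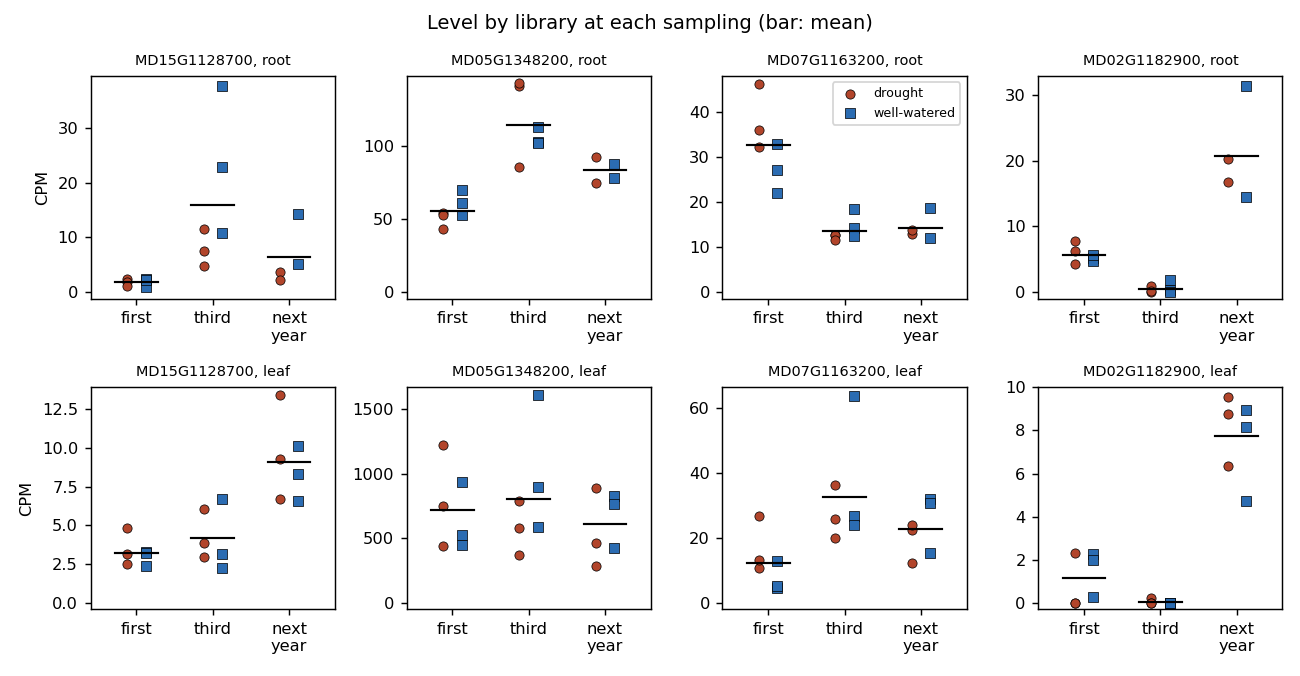
CPM (y axes, linear, scale set for each panel) of the 4 named genes at the first sampling, the third sampling and in the next year (x axes), in roots (upper row) and leaves (lower row). Each point is 1 library, red circles drought and blue squares well-watered, and the bar is the mean. In roots the first and the third sampling do not overlap for any of the 4 genes.

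Large non-overlapping differences were also found in genes that were not scarce, although the largest, at 4.17 and -4.07, lay in genes with a mean under 1 log2 CPM. Among non-overlapping genes with a mean of at least 1 log2 CPM, which numbered 154 higher and 101 lower, the 6 largest log2 changes upward ran from 1.93 to 3.23. The gene at 3.23 (SE 0.64, edgeR adjusted p = 0.118) had 14.1 to 136 CPM with a median of 28.2 at the third sampling, against 2.82 to 9.82 CPM with a median of 6.06 at the first. The gene at 1.93 (SE 0.28, edgeR adjusted p = 0.0904) had 43.7 to 67.2 CPM, median 46.0, at the third sampling, against 7.14 to 27.4 CPM, median 12.0, at the first. The 6 largest downward ran from -3.47 to -1.25, and the gene at -1.48 among these had 1.92 to 7.21 CPM, median 2.82, at the third sampling, against 9.28 to 11.1 CPM, median 9.80, at the first.

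The change between samplings was then taken within each regime, since only drought plants met further droughts between them. Neither regime gave an edgeR call, and no gene's change differed between the regimes past the test. In drought roots edgeR called 0 genes (0.0%), with 2617 (8.01%) under 0.05 before adjustment, and DESeq2 called 118 (0.361%; 93 higher, 25 lower). In well-watered roots edgeR called 0 (0.0%), with 1676 (5.13%) under 0.05 before adjustment, and DESeq2 called 24 (0.0734%; 16 higher, 8 lower). For the difference between the regimes both tools called 0 (0.0%), and edgeR placed 503 genes (1.54%) under 0.05 before adjustment.

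Genes picked in one regime by an unadjusted p under 0.05 mostly lay on the same side in the other, which shares no library with it. Of the 1501 genes higher in drought roots, 86.2% were also higher in well-watered roots, with a median log2 change of 0.76 under drought and 0.30 in well-watered roots. Of the 1116 lower in drought roots, 86.6% were also lower in well-watered roots, with medians of -0.78 under drought and -0.33 in well-watered roots. Picked in well-watered roots, 90.7% of 750 higher and 88.1% of 926 lower genes had the same sign under drought. Over all tested genes the regimes had the same sign for 67.0%. Picked in drought roots in both directions together, the share with the same sign was 69.8% without third-sampling well-watered block 3 and 62.9% with the first-sampling libraries of block 2 both left out, against 59.5% and 58.2% over all genes. Under the other alternatives it ran from 77.2% to 90.5%. Both regimes had an unadjusted p under 0.05 for 260 higher and 222 lower genes. These are 17.3% and 19.9% of the drought lists, against 2.3% higher and 2.83% lower in well-watered roots over all tested genes. They are 34.7% and 24.0% of the well-watered lists, against 4.59% higher and 3.42% lower in drought roots over all tested genes. The libraries of both regimes were grown, sampled and scaled together, and the part of that in the shared sign was not tested.

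**Figure D4:**
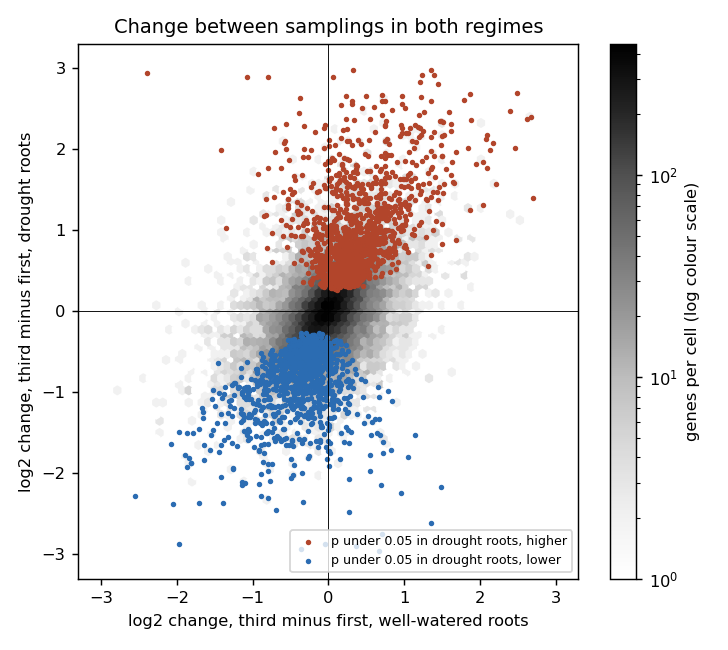
Log2 change, the third minus the first sampling, in drought roots (y axis) against well-watered roots (x axis). Grey cells count genes on a log colour scale, red and blue points are genes with an unadjusted p under 0.05 in drought roots, and 144 genes beyond a log2 change of 3 are not drawn. Most coloured points lie in the quadrants where both regimes have the same sign, 86.2% of the higher and 86.6% of the lower genes.

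Among the named genes, MD15G1128700 had a log2 change of 2.09 in drought and 3.64 in well-watered roots, and MD05G1348200 of 1.30 in drought and 0.78 in well-watered roots. MD07G1163200 had -1.64 in drought and -0.85 in well-watered roots, and MD02G1182900 -4.06 in drought and -2.92 in well-watered roots. Unadjusted edgeR p-values for the difference between the regimes were 0.0476, 0.0972, 0.0191 and 0.449 in that order, and none passed adjustment.

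Leaves of the same samplings gave 2847 calls where roots gave 0. Most genes called in leaf lay on the opposite side in roots, somewhat more often than genes tested in both tissues at large. In leaf the 2847 were of 31863 genes tested with edgeR (8.94%), 1287 higher (4.04%) and 1560 lower (4.9%) at the third sampling, and DESeq2 called 6670 (20.9%). Of the genes higher in leaf, 1156 were tested in root, where 36.2% were also higher and the median log2 change was -0.11, against 1.12 in leaf. Of those lower in leaf, 1462 were tested in root, where 38.0% were also lower and the median was 0.07, against -0.68 in leaf. Over the 29865 genes tested in both tissues 48.2% were higher and 51.8% lower in root. Root and leaf had the same sign for 42.1% of these 29865 genes. An unadjusted p under 0.05 in root was reached in the leaf direction by 2.85% and 3.56% of both lists, and in the opposite direction by 10.4% and 11.0%. The background for these shares is 6.87% higher and 7.23% lower over all genes tested in both tissues. Under 24 alternatives of the root fit the shares with the leaf sign ran from 31.6% to 40.7% for genes higher in leaf and from 33.4% to 41.8% for those lower, each below the share over all root genes tested in that fit.

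The difference between the tissues was tested directly, as the change in root minus the change in leaf. It passed the test for 3020 of 34860 genes (8.66%), with the root change above the leaf change for 1430 (4.1%) and below it for 1590 (4.56%) (edgeR, adjusted p under 0.05). DESeq2 called 5865 (16.8%), which include 3017 of the 3020. Of the genes with the root change above, 1380 were tested singly in both tissues, at median log2 changes of 0.30 (root) and -0.57 (leaf). Of those with the root change below, 1489 were, at medians of -0.39 (root) and 0.92 (leaf). The signs were opposite for 93.6% and 92.8% of them, which picking genes by this difference favours. The change was larger in root than in leaf for 23.5% and 19.1%.

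The split between directions depended on the scaling: RLE scaling, the method of DESeq2, gave 2094 above and 1347 below, and upper-quartile scaling 1107 and 2121. The median of this difference over all genes was -0.06 with TMM scaling, 0.008 with RLE and -0.144 with upper-quartile scaling. In leaf alone upper-quartile scaling gave 1571 higher and 1014 lower. The count of 3020 was 1773 without third-sampling drought root block 1, 1943 without third-sampling well-watered root block 2 and 1948 without first-sampling drought root block 1. It was 1819 without third-sampling drought leaf block 2, 1647 without first-sampling drought leaf block 2, and 2006, 1460 and 4819 without first-sampling well-watered leaf blocks 1, 2 and 3. With the first-sampling root libraries of block 2 both left out it was 1627, of which 1521 were among the 3020. The leaf count of 2847 was 1023, 1217 and 920 without third-sampling drought leaf blocks 3 and 2 and well-watered leaf block 1. It was 1028, 890, 1436 and 504 without first-sampling drought leaf blocks 1 and 2 and well-watered leaf blocks 1 and 2.

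**Figure D5:**
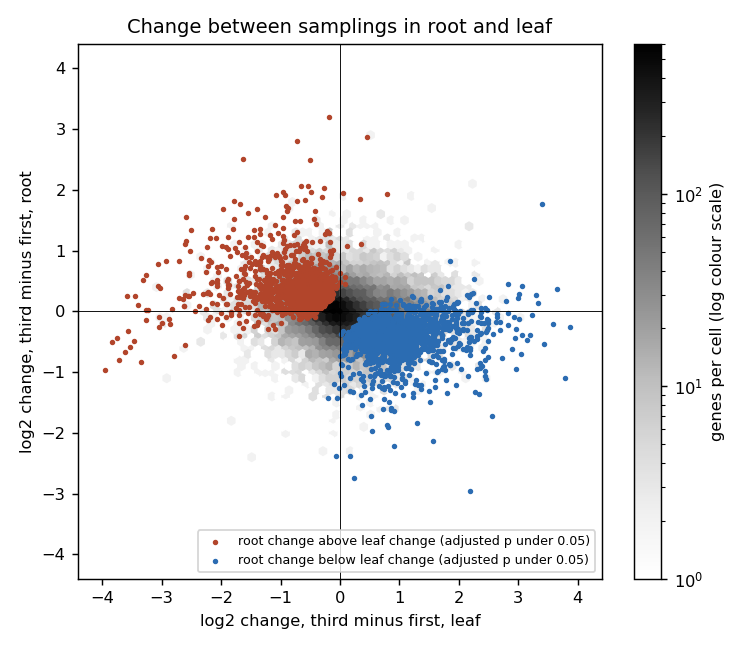
Log2 change, the third minus the first sampling, in root (y axis) against leaf (x axis). Grey cells count genes on a log colour scale, red points are genes with the root change above and blue points those with it below the leaf change (edgeR adjusted p under 0.05), and 27 genes beyond a log2 change of 4 are not drawn. Most coloured points have opposite signs in root and leaf and spread further along the leaf axis than along the root axis.

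Beside these counts, MD07G1163200 was lower in roots at the third sampling but higher in leaves. Leaf CPM were scaled over all 34 libraries, and root CPM of these samplings over the 12 root libraries. In leaf MD07G1163200 had 20.0 to 63.8 CPM at the third sampling and 4.56 to 26.9 CPM at the first, with overlapping groups. Its log2 change there was 1.60 (edgeR adjusted p = 0.0473). The root change minus the leaf change was -2.82 (edgeR adjusted p = 0.00287). MD15G1128700 had a log2 change of 0.46 in leaf (edgeR adjusted p = 0.305), where the groups overlapped, and a root change minus leaf change of 2.42 (edgeR adjusted p = 0.0101). MD05G1348200 was more abundant in leaf, at 368 to 1607 CPM at the third sampling and 442 to 1220 CPM at the first, and its root change minus leaf change was 0.87 (edgeR adjusted p = 0.15). MD02G1182900 was at 0 CPM in 5 of 6 third-sampling leaf libraries, against 0 to 2.31 CPM at the first sampling. Its log2 change was -4.73 in leaf (edgeR adjusted p = 0.0649), and the root change minus leaf change was 2.65 (edgeR adjusted p = 0.47). The named genes were chosen by their change in these root libraries, which favours a difference from leaf.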

How the data were processed

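Per the labels' protocols, root and leaf RNA was turned into stranded mRNA libraries and read in pairs of 100 bp. The deposited table held estimated counts, made by the authors and already whole, for 52311 identifiers in 34 libraries, and they were used unrounded. FastQC, Salmon, DESeq and DESeq2 are listed in the submitters' processing notes. The build, annotation and run options are not given in the sources used here. Reads that match several transcripts are apportioned by Salmon, which leaves near-identical gene copies uncertain. None of the identifiers (0) matched the RefSeq gene table used here, and no sequence, coordinate or name is given.

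The 12 root libraries held 29963017 to 60194325 counts. Of the identifiers, 10832 had no count in them, 8803 fell to edgeR's filterByExpr, and 32676 were tested. Counts were fitted with edgeR 4.0.16 in R 4.3.3 (TMM scaling, glmQLFit with robust dispersions, glmQLFTest, Benjamini-Hochberg adjustment, threshold 0.05). The pooled fit had terms for sampling and regime, the others a mean per group. Standard errors came from the F statistic. Log2 CPM for components used a prior count of 2, and mean levels of gene groups used log2 of CPM plus 0.1. The scripts were tested on simulated data. The members and lists were chosen with earlier results of these data known. The rule for naming genes took the largest changes among edgeR calls whose groups did not overlap.

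Replicate numbers mark the sowing block per the labels and therefore pair the libraries. Root libraries of the same number deviated from their groups with correlations of -0.73 to 0.66, above 0.1 in 6 of 18 pairs. The block was left out of the main design and is an alternative. Alternatives covered scaling, filters, DESeq2 1.42.0, the block, each library left out, all 16 root libraries, the regime term and 1 surrogate variable (sva 3.50.0).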

Additional observations from a re-analysis of the deposited data

Results flagged for a closer look

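The change between the third and the first sampling differed between root and leaf for 3020 genes by the test of the difference itself (edgeR, adjusted p under 0.05), the largest number of calls in any comparison that involves the roots. Of the named genes, MD15G1128700 had a root change minus leaf change of 2.42 on the log2 scale (edgeR adjusted p = 0.0101), and MD07G1163200 of -2.82 (edgeR adjusted p = 0.00287). Both genes were chosen by their change in the same root libraries, which favours such a difference.

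Of 45 groups of libraries tested for a library far from the rest, 2 had one, where chance gives about 1 in 20. MD15G1128700 was at 4.83 CPM in the first-sampling drought leaf library of block 3, against 2.39 to 3.26 CPM in the other 5. MD02G1182900 was at 0.211 CPM in the third-sampling drought leaf library of block 1, against 0 in the other 5. Both are leaf libraries, and neither enters the root comparison.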

How the results depend on the processing

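Calls between the samplings in root depended on the tool and on single libraries. DESeq2 called 775 genes in the pooled comparison (459 higher, 316 lower), 118 in drought roots and 24 in well-watered roots, where edgeR called 0. All 16 root libraries in the fit gave 3 (2 higher, 1 lower), and 1 surrogate variable 135 (91 higher, 44 lower). Leaving out each library in turn gave 0 to 5 pooled calls (0 to 5 higher, 0 lower), 0 in each regime and 0 for the difference between regimes. The pooled count at an unadjusted p under 0.05 was 3239 to 6164 with 1 library left out, and 2708 with the first-sampling root libraries of block 2 left out. For root against leaf DESeq2 gave 5865 genes, single libraries left out 1460 to 4819, and the same 2 libraries left out 1627. For leaf alone DESeq2 gave 6670, and single libraries left out 504 to 3419. The cause of these shifts was not tested. Other scalings, filters and dispersions left the root counts at 0, and the 4 named genes kept their direction under all 24 alternatives.

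With the replicate block, which pairs the libraries by sowing, edgeR called 0 pooled root genes, with 4341 at an unadjusted p under 0.05, 2494 in leaf and 3699 for root against leaf. DESeq2 called 639, of which 550 were among its 775. The block also left the edgeR calls of drought roots, well-watered roots and the difference between regimes at 0, and those of the 4 named genes in the pooled root fit on the same side of the threshold.

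Precision was lowest for scarce genes: the 95% interval lay within a 2-fold change either way for 42.6% of the genes in the lowest of 3 equal classes of abundance.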
